A study of Mus musculus with 30 samples.

Results

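The genes described here are 7 matrix metalloproteinases, Mmp2, Mmp9, Mmp3, Mmp10, Mmp11, Mmp13 and Mmp14, chosen by symbol from the deposited gene tables, which together list 20093 gene identifiers. All 7 were listed in each of the 14 tables. Matrix metalloproteinases are zinc-dependent endopeptidases that are made as inactive proenzymes and, once activated, cleave collagens, laminins, proteoglycans, adhesion molecules and growth factor stores outside the cell. The tissue inhibitors of metalloproteinases (Timp genes) block them, and several are transcribed on demand, through AP-1, ETS and NF-kB factors, when fibroblasts meet inflammatory cytokines. In the intestine they are known for the remodelling of the lamina propria, for wound repair and for tissue loss in ulcers.

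RNA was measured by sequencing of transcript 3' ends in cells freshly isolated from the intestine of C57BL/6 mice, all of which carried a ColVI-cre transgene and the Rosa mTmG reporter. In that reporter every cell is red (Tomato) until Cre acts, and green (GFP) afterwards, so GFP marks cells in which the collagen VI promoter fragment has driven Cre and the descendants of such cells. The colon gave GFP-positive, GFP-negative and unsorted cells, each from normal mice and from mice in which colitis had been induced with dextran sulfate sodium (DSS), a polymer that injures the colonic epithelium. From the small intestine of normal mice, GFP-high, GFP-low, GFP-negative and unsorted cells were taken. These are 10 groups of 3 libraries, and 29 libraries were used, since the first replicate of unsorted small intestine is not analysed here. The labels name no mice, so the p-values measure the spread between these libraries, which may be partly technical. Normal and DSS colon libraries carry separate series of numbers in their labels. Any difference in preparation between these series cannot be told apart from the effect of DSS.

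The values are the authors' normalised read counts, in which 1 read was worth between 0.571 and 1.925 counts and libraries held an estimated 1229480 to 4425420 reads. Because the 3' kit gives 1 read per transcript, counts of different genes were compared without a length correction. Normal colon, DSS colon and small intestine were scaled apart from one another, and the sorted colon cells of both conditions share a further scale, on which the DSS response was tested. The 9 mesenchymal markers checked (among them Col1a1, Pdgfra and Dcn) were detected in all groups, and their summed level in normal colon was 75323 to 84191 counts in GFP-positive, 81168 to 112733 in GFP-negative and 31690 to 69600 in unsorted libraries. Each level is one of bulk RNA, in which fewer cells of a type and less RNA per cell cannot be told apart.

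**Figure D1:**
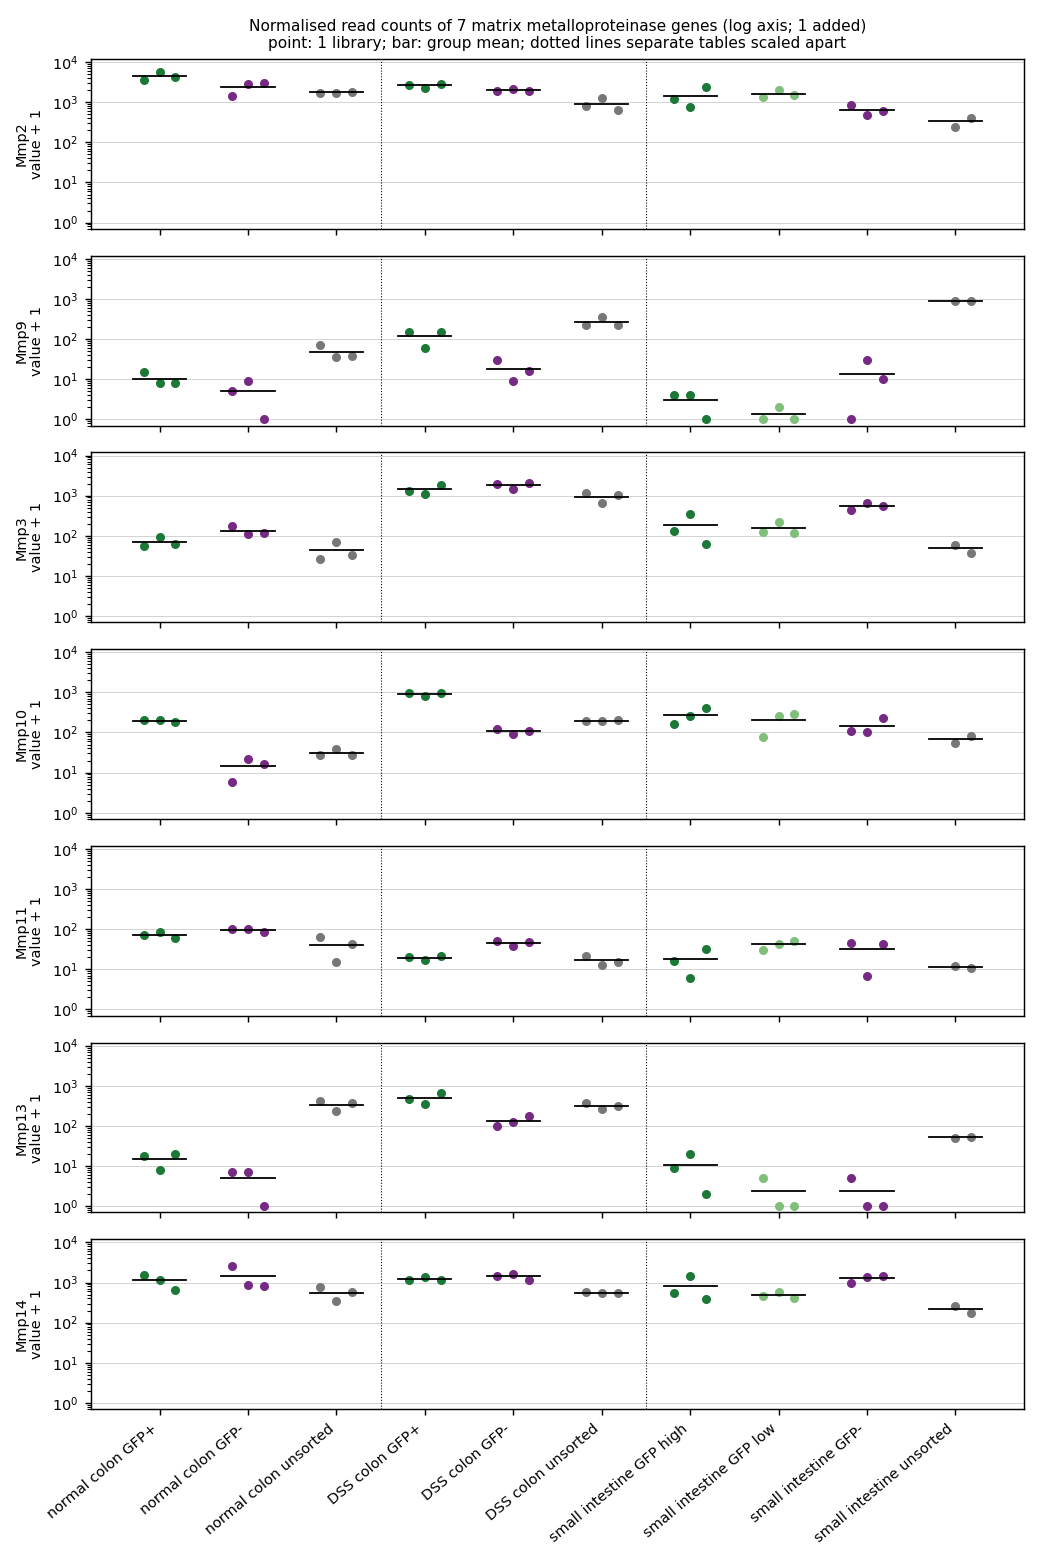
Normalised counts plus 1 of the 7 genes in 29 libraries, on a log axis; each point is a library, each bar a group mean, and the dotted lines separate tables that were scaled apart. Within each sort the group means of Mmp3, Mmp10, Mmp13 and Mmp9 sit higher in DSS than in normal colon, across tables scaled apart. Mmp2 has the highest mean of the 7 in each normal colon group, and Mmp9 in the unsorted small intestine.

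In GFP-positive colon cells 4 of the 7 genes rose in DSS colitis, 1 fell and 2 did not pass the test, against a background of 19.7% of 12976 genes called (10.2% higher and 9.46% lower). Without overlap between the groups, 19.2% of genes were higher and 18.8% lower, and in GFP-negative cells 16.3% and 15.1%. Mmp13, Mmp3, Mmp9 and Mmp10 rose, by a ratio of means of 47.6, 28.7, 17.6 and 6.41, and Mmp11 fell. In GFP-negative cells Mmp13, Mmp3 and Mmp10 rose, with ratios of 46.4, 19.4 and 10.7, and the other 4 genes did not pass, against a background of 10.3% of 13025 genes (6.03% higher, 4.27% lower). The median log2 change of the 7 genes was 2.67 in GFP-positive and 2.50 in GFP-negative cells, and that of all genes tested was -0.01 and -0.02. The 7 genes were chosen with earlier results of these data known, so these medians and counts describe them and are no test of the family. With libraries scaled to equal totals the share of higher among all calls was 38.5% in place of 52.0% in GFP-positive and 44.1% in place of 58.5% in GFP-negative cells, while the calls of the 7 genes were the same. Tests were made with limma on log2(count + 1), with Benjamini-Hochberg adjustment over all genes and a threshold of 0.05, so a fold change understates the change of low genes.

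The gelatinases cut denatured collagen and the collagen IV of basement membranes. Mmp2, known as a constitutive product of fibroblasts, was at 2957, 4809 and 3665 normalised counts in the 3 normal GFP-positive libraries and at 3180, 2691 and 3316 in the DSS ones. In GFP-negative cells it was at 1200, 2402 and 2588 in normal and 2181, 2527 and 2212 in DSS colon. The normal and DSS libraries overlapped in both sorts, and neither difference passed the test (log2 change -0.29, 95% interval -0.78 to 0.19, limma adjusted p = 0.379, and 0.24, interval -0.46 to 0.93, adjusted p = 0.671). The reads of Mmp2 (mm10, chr8:92827291-92853420, plus strand) cannot be told apart from those of an antisense gene with a clone name (ENSMUSG00000109669) at chr8:92853653-92856334 whose 3' end lies 233 bases away: the deposited counts of both genes differed by at most 4 in 18 colon libraries. Of the genes with deposited counts, none had its 3' end within 2000 bases of that of the other 6 genes.

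Mmp9, the gelatinase best known from neutrophils and macrophages, was at 12, 6 and 6 normalised counts in normal GFP-positive cells and at 176, 69 and 178 in DSS ones. The lowest DSS library lay far above the highest normal one, and Mmp9 (chr2:164940780-164955850) rose by 3.92 on the log2 scale (SE 0.40, interval 3.05 to 4.79, limma adjusted p = 5.71e-05). In GFP-negative cells the values were 4, 7 and 0 in normal and 34, 10 and 18 in DSS colon. These groups did not overlap, but the difference of 2.50 (interval 0.76 to 4.25) missed the threshold with an adjusted p of 0.0671. It passed without normal GFP-negative library 1 (2.78, adjusted p = 0.0444), and without each of the other 5 libraries it lay between 1.62 (without normal library 3, adjusted p = 0.112) and 3.12, with adjusted p-values of up to 0.202.

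Some neutrophil genes rose with DSS, as Mmp9 did. The summed neutrophil list, much of it Elane (neutrophil elastase), overlapped between normal and DSS GFP-positive cells with Elane and without it. Without Elane its median went from 78 to 160 counts there. S100a8, a neutrophil calprotectin subunit, was at 1, 0 and 6 counts in normal and 135, 41 and 35 in DSS GFP-positive cells, and at 0, 4 and 1 and then 100, 142 and 139 in GFP-negative cells. S100a9, its partner, was at 0 in all 3 normal GFP-positive libraries and at 113, 27 and 41 in the DSS ones. In the same DSS GFP-positive libraries Mmp9 was at 176, 69 and 178 counts. Of all genes, 10.2% were called higher and 9.46% lower for DSS in GFP-positive cells, and 6.03% and 4.27% in GFP-negative cells. Of the neutrophil list, 2 of 5 genes tested rose and 0 fell in GFP-positive cells. In GFP-negative cells 3 of 7 rose and 1 (Elane, neutrophil elastase, log2 change -2.12) fell. The list summed to 376 to 593 counts in normal and 351 to 569 in DSS GFP-positive cells, and without Elane, left out after its values were seen, to 64 to 182 and 156 to 344. In GFP-negative cells the sums were 596 to 3378 and 631 to 754, and without Elane 59 to 143 and 397 to 455. Within DSS colon, the sum without Elane was higher in GFP-negative cells, without overlap. The macrophage and monocyte markers summed to 132 to 246 counts in normal and 268 to 399 in DSS GFP-positive cells, without overlap, with 2 of 7 genes tested higher and 0 lower (Ly6c2 and C1qa). In GFP-negative cells they summed to 158 to 454 and 195 to 396, with 0 of 7 called. Of 4 pan-leukocyte genes tested, 1 (Laptm5) rose in GFP-positive cells and 0 in GFP-negative cells, and their list summed to 80 to 388 and then 76 to 362, and to 840 to 3925 and then 312 to 853. The part of other cells in the Mmp9 level was not tested.

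The stromelysins degrade proteoglycans, fibronectin and laminin, and Mmp3 and Mmp10 also activate other proenzymes of the family. Mmp3 (stromelysin 1, chr9:7445822-7455972) was at 46, 79 and 52 normalised counts in normal and 1549, 1310 and 2214 in DSS GFP-positive cells, and at 145, 93 and 100 and then 2344, 1708 and 2499 in GFP-negative cells. In both sorts every DSS library exceeded every normal one more than 10-fold. The log2 change was 4.82 (SE 0.25, limma adjusted p = 1.203e-07) in GFP-positive and 4.27 (SE 0.27, adjusted p = 4.93e-06) in GFP-negative cells.

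Mmp10 (stromelysin 2, chr9:7502352-7510238) was at 173, 167 and 153 counts in normal and 1102, 939 and 1117 in DSS GFP-positive cells, with a log2 change of 2.67 (SE 0.19, limma adjusted p = 1.27e-06). In GFP-negative cells it was at 4, 18 and 13 and then at 141, 107 and 126, a change of 3.51 (SE 0.44, adjusted p = 6.44e-04). The DSS level of GFP-negative cells thus stayed below the normal level of GFP-positive cells. Mmp11 (stromelysin 3, chr10:75923222-75932502, minus strand), which is activated inside the cell by furin and cleaves matrix poorly, went the other way. Its counts were 60, 71 and 50 in normal and 22, 19 and 24 in DSS GFP-positive cells, a fall of -1.43 (SE 0.28, adjusted p = 0.00382). In GFP-negative cells they were 86, 84 and 72 against 59, 43 and 55, without overlap but not past the test (-0.62, interval -1.20 to -0.05, adjusted p = 0.153).

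Mmp13 (chr9:7272514-7283333), the main interstitial collagenase of the mouse and the first cutter of fibrillar collagen, had the largest change of the 7 genes in both sorts. It was at 15, 6 and 16 normalised counts in normal GFP-positive cells and at 551, 418 and 794 in DSS ones. In GFP-negative cells it was at 5, 5 and 0 and then at 115, 143 and 206. Both log2 changes were 5.52 (SE 0.35 and limma adjusted p = 2.67e-06 in GFP-positive, SE 0.62 and adjusted p = 2.84e-04 in GFP-negative cells). The normal values amount to a handful of reads, so the size of the ratio is less certain than its direction. The calls of Mmp3, Mmp10 and Mmp13 held in both sorts without any 1 library.

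Mmp14 encodes membrane-type 1 matrix metalloproteinase, which sits in the plasma membrane, cuts fibrillar collagen at the cell surface and activates pro-Mmp2 and pro-Mmp13. Its counts (chr14:54431612-54441265) were 1320, 989 and 541 in normal and 1347, 1656 and 1356 in DSS GFP-positive cells, and 2172, 742 and 695 against 1663, 1945 and 1381 in GFP-negative cells. The normal libraries varied more than the DSS ones, and in GFP-negative cells the groups overlapped. Neither difference passed (log2 0.70, interval 0.08 to 1.32, limma adjusted p = 0.106, and 0.66, interval -0.20 to 1.53, adjusted p = 0.303). Normal library 1 decided this in both sorts: without it the difference was 0.98 (adjusted p = 0.0256) in GFP-positive and 1.20 (adjusted p = 0.00534) in GFP-negative cells.

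**Figure D2:**
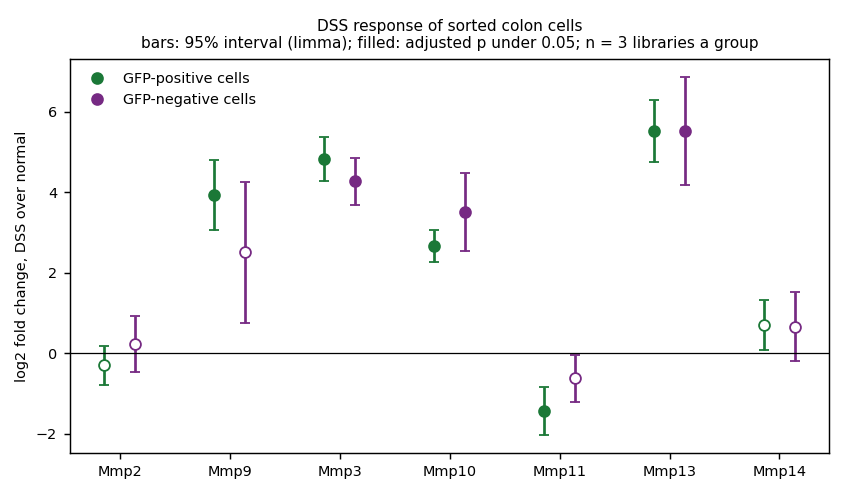
Log2 fold change of DSS over normal colon for each of the 7 genes, in GFP-positive and GFP-negative cells (n = 3 libraries a group); bars are 95% limma intervals and filled points have an adjusted p under 0.05. Mmp13, Mmp3 and Mmp10 lie at 2.67 or more in both sorts, and Mmp11 lies at -1.43 and -0.62.

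The responses of both sorts were compared directly as the difference of their log2 changes. None of the 7 genes passed this test, in which 0.0519% of 13488 genes were called. By limma, 1 gene had an unadjusted p under 0.05, Mmp11, with a difference of -0.81 (GFP-positive minus GFP-negative, interval -1.55 to -0.06, adjusted p = 0.570). The intervals were wide for the induced genes, 0.55 (-0.26 to 1.35) for Mmp3, 1.42 (-0.57 to 3.40) for Mmp9, -0.84 (-1.88 to 0.21) for Mmp10 and 0.00262 (-1.77 to 1.78) for Mmp13, so differences of over 2-fold between the sorts are not excluded for any of these 4. For Mmp2 and Mmp14 the differences were -0.53 (-1.38 to 0.32) and 0.03 (-1.12 to 1.19).

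Mmp3, Mmp10 and Mmp13, which rose in both sorts, lie within one cluster of metalloproteinase genes on chromosome 9. Their proximal promoters are shown because all 3 hold an AP-1 motif and the TATA box motif TATAAA. The 120 bases before each start site, from RefSeq on GRCm38.p6 (the build also called mm10), read 5' to 3' on the plus strand, with the AP-1 motif TGANTCA in capitals.
Mmp3 (chr9:7445702-7445821): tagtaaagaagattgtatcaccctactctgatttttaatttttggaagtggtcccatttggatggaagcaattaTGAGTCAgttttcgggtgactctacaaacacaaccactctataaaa
Mmp10 (chr9:7502222-7502341): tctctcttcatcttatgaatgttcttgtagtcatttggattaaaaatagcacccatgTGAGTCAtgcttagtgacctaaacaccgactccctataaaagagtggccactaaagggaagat
Mmp13 (chr9:7272394-7272513): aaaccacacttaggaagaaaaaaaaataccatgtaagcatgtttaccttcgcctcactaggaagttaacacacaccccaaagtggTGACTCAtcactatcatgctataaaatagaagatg
The AP-1 motif starts 46, 63 and 35 bases before the annotated start of Mmp3, Mmp10 and Mmp13, and 39, 34 and 19 bases before the motif TATAAA. Of 32851 RefSeq promoters searched on both strands over the same 120 bases, 3.41% held TGANTCA, 6.34% held TATAAA, and 118 (0.359%) held both. The ETS motif AGGAAG was found in the shown bases of Mmp13, at 2 places, and in 16.3% of all promoters. Over 300 bases around the start, which 5 of the 7 genes had in the table, Mmp11 held none of the 3 motifs and Mmp14 held AGGAAG alone. Because the 3 promoters were chosen for holding both motifs, these shares are background and no test of a link with DSS. The promoter of Mmp9, which also rose in GFP-positive cells, was not searched. The matches describe letters, not bound sites.

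Within normal colon, Mmp10 was the 1 gene of the 6 tested that passed the test between the sorts. There 5.98% of 13346 genes were called (2.97% higher and 3.01% lower in GFP-positive cells). On the scale of the normal colon it was at 207, 199 and 182 normalised counts in GFP-positive and 5, 21 and 15 in GFP-negative cells, a log2 difference of 3.94 (SE 0.44, limma adjusted p = 6.29e-04). Mmp2 was higher in each GFP-positive library (3536, 5734 and 4354 against 1426, 2846 and 3074) and Mmp3 lower (55, 94 and 62 against 172, 110 and 119), but neither passed (0.94, adjusted p = 0.185, and -0.93, adjusted p = 0.115). Of all genes, 11.2% were higher and 10.8% lower without overlap. Mmp9 was too low to be tested, with 14, 7 and 7 against 4, 8 and 0 counts. Mmp13 was at 17, 7 and 19 against 6, 6 and 0 counts, and Mmp11 at 72, 85 and 60 against 102, 100 and 86. Both were also without overlap but did not pass (limma adjusted p = 0.252 and 0.488). The Mmp14 groups overlapped (adjusted p = 0.880).

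In DSS colon 4 of the 7 genes passed the test between the sorts, against 17.1% of 12570 genes (8.22% higher, 8.90% lower, and 17.1% and 16.5% without overlap). These comparisons share their libraries with the DSS responses above. Mmp10 was at 943, 799 and 954 counts in GFP-positive and 120, 91 and 107 in GFP-negative cells (log2 difference 3.08, limma adjusted p = 6.93e-08). Mmp9, at 151, 58 and 152 against 29, 8 and 15, and Mmp13, at 471, 356 and 678 against 98, 122 and 175, were also higher in GFP-positive cells (2.77, adjusted p = 0.00166, and 1.91, adjusted p = 9.82e-05). For these 3 genes the lowest GFP-positive library exceeded the highest GFP-negative one.

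Mmp11 was lower in GFP-positive DSS cells, at 19, 16 and 20 against 50, 37 and 47 counts (-1.23, limma adjusted p = 0.00606). Mmp3 was at 1325, 1115 and 1891 against 1997, 1449 and 2127 and Mmp14 at 1152, 1409 and 1158 against 1417, 1651 and 1176, with overlapping groups. Their differences of -0.38 (interval -0.85 to 0.09) and -0.18 (interval -0.58 to 0.21) did not pass, and neither did that of Mmp2 (0.41, interval 0.03 to 0.79, adjusted p = 0.133). The Mmp2 groups did not overlap (2719, 2290 and 2832 against 1858, 2144 and 1882 counts). The order of the 7 genes by level was led by Mmp2 in GFP-positive DSS cells, while Mmp2, Mmp3 and Mmp14 had nearby levels in GFP-negative ones.

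**Figure D3:**
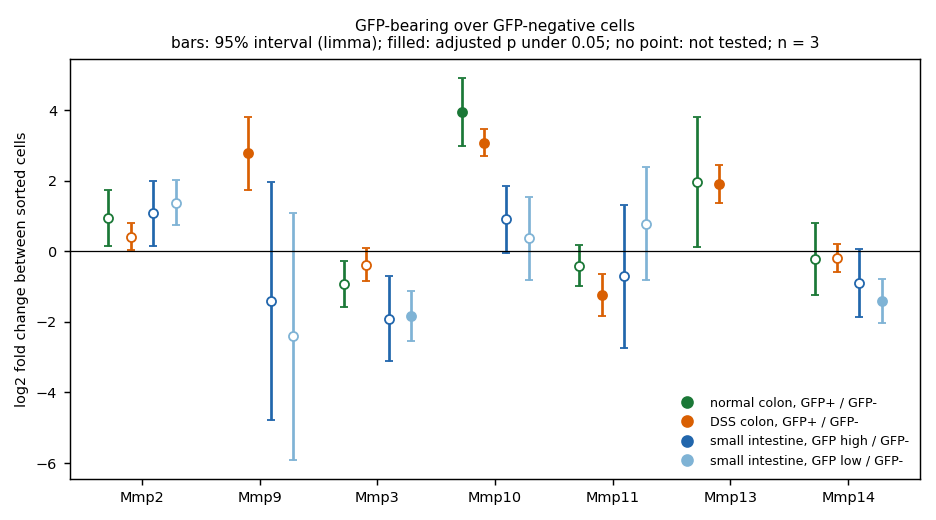
Log2 fold change of GFP-bearing over GFP-negative cells for each gene in normal colon, DSS colon and small intestine (GFP-high and GFP-low, n = 3 libraries a group); bars are 95% limma intervals, filled points have an adjusted p under 0.05, and a missing point was not tested. Mmp10 lies at 3.94 and 3.08 in colon, and in the small intestine Mmp3 and Mmp14 lie below 0.

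In colon, smooth muscle and pericyte markers were higher in GFP-positive than in GFP-negative cells, as Mmp10 was. On the shared scale their list of 10 genes summed to 3011 to 4680 counts in normal GFP-positive and 875 to 2026 in normal GFP-negative cells, and to 3958 to 4319 and 1782 to 2466 in DSS. One of them, the potassium channel gene Kcnj8, had the pattern most like that of Mmp10 (below). The sums did not follow Mmp10 throughout. Within GFP-positive cells they overlapped between normal and DSS colon, where Mmp10 rose. On the scale of normal colon, unsorted cells had sums of 7844 to 12069 and GFP-positive cells 3586 to 5562, with less Mmp10 in unsorted cells. In the small intestine GFP-high cells had sums of 5814 to 10142 and GFP-negative cells 2240 to 3882, while their Mmp10 overlapped. The mesenchymal markers, in contrast, fell with DSS in GFP-positive cells, from a sum of 62990 to 70605 to one of 32408 to 36271 (6 of 9 genes lower), and not in GFP-negative cells (68294 to 95141 against 72270 to 96084, 1 of 9 lower). The part of either list in the levels of the 7 genes was not tested.

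In the small intestine the pattern of Mmp10 was less distinct, and Mmp3 and Mmp14 were highest in GFP-negative cells. Mmp3 was at 134, 349 and 61 normalised counts in GFP-high, 125, 225 and 119 in GFP-low and 436, 640 and 550 in GFP-negative cells. Mmp14 was at 546, 1459 and 396, then 462, 575 and 407, and then 981, 1406 and 1488. GFP-negative cells exceeded GFP-low cells in every library for both genes, whereas GFP-high library 2 reached their Mmp14 range.

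Compared with GFP-negative cells, GFP-low cells had less Mmp3 (log2 -1.83, limma adjusted p = 0.0402) and less Mmp14 (-1.41, adjusted p = 0.0477), 2 of 6 genes tested against 0.675% of 12445 genes (0.112% higher and 0.562% lower, and 10.7% and 12.5% without overlap). Both calls are close to the threshold: Mmp14 lost its call without any 1 of the 6 libraries (adjusted p from 0.0516 without GFP-low library 2 to 0.234 without GFP-low library 3), and Mmp3 lost its call without each of them other than GFP-low library 2. Other markers differed between the same groups: the pan-leukocyte list summed to 205 to 312 counts in GFP-low and 558 to 1450 in GFP-negative cells, and the smooth muscle and pericyte list to 5869 to 8438 and 2240 to 3882, both without overlap, and their part in the Mmp3 and Mmp14 differences was not tested. The authors' deposited table called neither Mmp3 (false discovery rate 0.918) nor Mmp14 (false discovery rate 1) there. It called Mmp9 (log2 -3.36, false discovery rate 0.0167), which did not pass by limma. For GFP-high cells none of 6 genes passed (0.894% of 12412 genes called, and 7.90% higher and 8.28% lower without overlap), and by limma 2, Mmp2 and Mmp3, had an unadjusted p under 0.05. The Mmp3 difference of -1.91 (adjusted p = 0.190) became -2.55 (adjusted p = 0.0201) without GFP-high library 2, the library high in Mmp3. GFP-high and GFP-low cells differed in none of 5 genes (0.384% of 12226 genes called, and 7.50% higher and 6.12% lower without overlap), with 1, Mmp11, at an unadjusted p under 0.05 by limma.

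Mmp2 was at 1232, 752 and 2410 counts in GFP-high, 1386, 1971 and 1544 in GFP-low and 843, 481 and 593 in GFP-negative cells of the small intestine. The GFP-low cells lay above the GFP-negative cells without overlap, with a difference of 1.38 that missed the threshold (interval 0.74 to 2.02, limma adjusted p = 0.0612). Mmp10 was at 160, 257 and 415, then 76, 258 and 285, and then 110, 102 and 231, with overlapping groups. Mmp11 lay between 5 and 51 counts, Mmp13 between 0 and 19 and Mmp9 between 0 and 29 in all 9 sorted libraries.

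Unsorted cells hold the other cell types of the tissue too. Mmp9 was higher in unsorted than in sorted cells in all 7 such comparisons: unsorted libraries held 71, 34 and 36 counts in normal colon, 223, 352 and 218 in DSS colon and 870 and 877 in small intestine. In the small intestine both unsorted libraries exceeded every sorted one, of which the highest had 29 counts. The log2 differences were -2.20 (limma adjusted p = 0.00837) for GFP-positive and -3.67 (0.00977) for GFP-negative normal colon, and -1.22 (0.0181) and -3.99 (1.82e-05) for DSS colon. The call of -1.22 was lost without GFP-positive library 2 (-0.76, adjusted p = 0.0704) and without unsorted library 2 (adjusted p = 0.0761).

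Mmp13 in normal colon was far higher in unsorted than in sorted cells, at 408, 229 and 364 counts in unsorted against 17, 7 and 19 in GFP-positive and 6, 6 and 0 in GFP-negative libraries (log2 differences -4.51 and -6.47, limma adjusted p = 7.01e-05 and 3.21e-04). In DSS colon the unsorted libraries, at 379, 256 and 311, no longer stood above the GFP-positive ones (471, 356 and 678, difference 0.64, adjusted p = 0.0769), and still stood above the GFP-negative ones (-1.28, adjusted p = 0.00281). Mmp10 was higher in GFP-positive than in unsorted cells in normal (27, 38 and 27 counts unsorted, difference 2.65, adjusted p = 2.40e-04) and DSS colon (189, 198 and 204 unsorted, 2.18, adjusted p = 4.93e-06). DSS GFP-negative cells had less Mmp10 than unsorted ones (-0.90, adjusted p = 0.00798, and 0.0539 without GFP-negative library 2).

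The remaining calls against unsorted colon cells put the sorted cells higher. Mmp2 was at 1688, 1740 and 1815 counts in normal and 808, 1295 and 646 in DSS unsorted cells. It was higher in normal GFP-positive cells by 1.35 (limma adjusted p = 0.0165, and 0.0740 or 0.0634 without GFP-positive library 2 or 3) and in both DSS sorts by 1.57 and 1.16 (adjusted p = 5.04e-04 and 0.00651). Mmp14, at 587, 549 and 543 in DSS unsorted cells, was higher in both DSS sorts by 1.14 and 1.32. Mmp3, at 25, 71 and 33 in normal and 1169, 644 and 1017 in DSS unsorted cells, was higher in GFP-negative cells of both (adjusted p = 0.0175 with a difference of 1.73 in normal, and 0.0154 in DSS colon). Each of these Mmp3 calls was lost without certain libraries: in normal colon without unsorted library 3 (adjusted p = 0.0642) or GFP-negative library 1 (0.0738), and in DSS colon without unsorted library 2 (0.0642) or GFP-negative library 3 (0.0717). Mmp11, at 21, 12 and 14 in DSS unsorted cells, was higher in DSS GFP-negative cells by 1.48.

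In counts, 4 and 3 of the 7 genes passed for GFP-positive and GFP-negative normal colon over unsorted cells (background 21.8%, with 7.72% higher and 14.1% lower, and 18.8%, with 5.81% higher and 13.0% lower), and 4 and 7 for DSS colon (37.1% and 33.0%). Without overlap, 17.4% of genes were higher and 21.9% lower in normal GFP-positive, 15.5% and 20.8% in normal GFP-negative, 22.5% and 26.7% in DSS GFP-positive and 19.9% and 24.7% in DSS GFP-negative cells. Without unsorted library 1, Mmp11 also passed in both normal comparisons (limma adjusted p = 0.0374 and 0.0169), and Mmp3 and Mmp13 in DSS GFP-positive cells (0.0347 and 0.0357). Mmp13 passed there also without GFP-positive library 2 (0.0445).

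For the small intestine 3, 6 and 4 genes passed in GFP-high, GFP-low and GFP-negative cells over unsorted ones (background 17.2%, 22.8% and 11.5%), with only 2 unsorted libraries to compare with. Mmp9 differed by -8.44, -9.44 and -7.03 on the log2 scale (limma adjusted p = 0.00115, 1.41e-04 and 0.0157), sizes that depend on the 1 count added. Mmp2 was higher in GFP-high (2.03) and GFP-low cells (2.33), and Mmp3 and Mmp14 were higher in GFP-negative (3.49 and 2.57) and GFP-low cells (1.66, adjusted p = 0.0189, and 1.16, adjusted p = 0.0270), against 59 and 37 counts of Mmp3 and 264 and 172 of Mmp14 in unsorted cells. Mmp10 was higher in GFP-high (1.96) and Mmp11 in GFP-low cells (1.82). Mmp13, at 50 and 51 counts in unsorted cells, was lower in GFP-low (-4.91, adjusted p = 0.00516) and in GFP-negative cells (-4.91, adjusted p = 0.0296). Without unsorted library 2 the counts of genes called were 0, 1 and 0, and without unsorted library 3 they were 0, 2 and 1. Without GFP-low library 2, 3 genes passed in GFP-low cells.

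The pan-leukocyte, macrophage and monocyte, epithelial and endothelial lists summed higher in every unsorted library than in every sorted one on the same scale. The neutrophil list did so in DSS colon only, and the smooth muscle and pericyte list in normal colon only. The 9 pan-leukocyte markers summed to 12206 to 48675 counts in normal colon, 7753 to 10431 in DSS colon (8 genes listed) and 25353 to 25942 in small intestine, and the 10 macrophage and monocyte markers to 5286 to 9111, 4957 to 6300 and 6358 to 6585. The neutrophil markers summed to 765 to 1202, 6918 to 13004 and 805 to 1207. On the shared scale of the sorted colon the pan-leukocyte markers summed to 76 to 388 in GFP-positive and 312 to 3925 in GFP-negative libraries. S100a8 was at 3705, 5137 and 3077 counts in DSS unsorted cells, with Mmp9 at 223, 352 and 218. In the unsorted small intestine, which was scaled apart, S100a8 was at 11 and 9 and Mmp9 at 870 and 877. The 12 epithelial markers summed to 2629 to 22104 in normal colon, 3306 to 8289 in DSS colon and 2903 to 5313 in small intestine unsorted cells, and to between 109 and 906 in the sorted colon on its shared scale. All 12 were called lower in each of the 4 comparisons of sorted with unsorted colon. Of all genes, 14.1% and 13.0% were called lower in GFP-positive and GFP-negative normal colon, and 21.3% and 19.3% in DSS colon. The 11 endothelial markers summed to 4001 to 4681, 2250 to 2652 and 1982 to 1990 in unsorted cells, and the smooth muscle and pericyte markers to 7844 to 12069, 3452 to 4097 and 3006 to 3916. In sorted small intestine the smooth muscle and pericyte sums were 5814 to 10142 (GFP-high), 5869 to 8438 (GFP-low) and 2240 to 3882 (GFP-negative). The part of any of these cells in the levels of Mmp9 and Mmp13 was not tested.

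**Figure D4:**
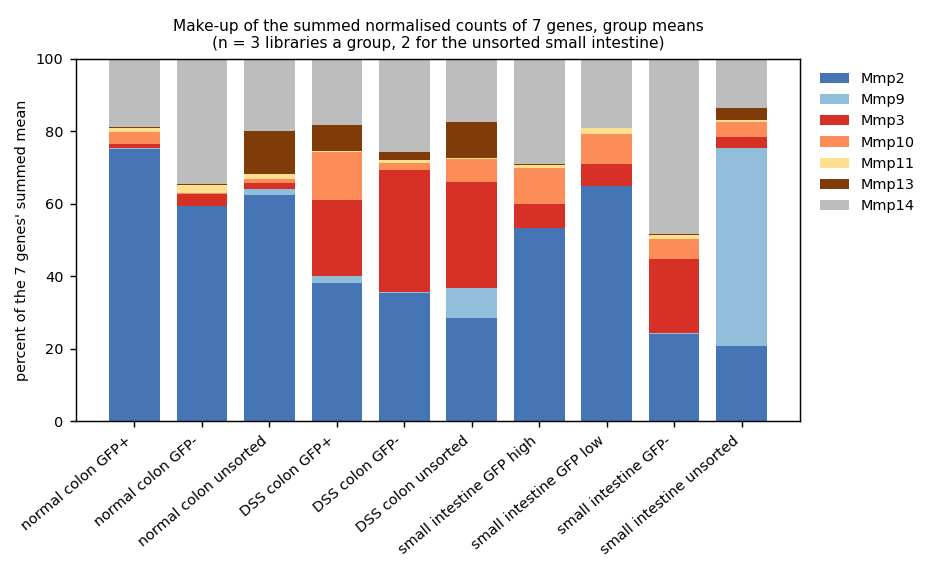
Make-up of the summed mean normalised counts of the 7 genes in each group, in percent, with 3 libraries a group (2 for the unsorted small intestine). Mmp2 and Mmp14 make up most of the sum in normal colon, Mmp3 grows to 21.1%, 33.6% and 29.4% of it in DSS GFP-positive, GFP-negative and unsorted cells, and Mmp9 holds 54.6% in the unsorted small intestine.

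On the shared scale of the sorted colon the summed mean of the 7 genes was 5064 counts in normal and 8009 in DSS GFP-positive cells (ratio 1.58), and 3478 and 6506 in GFP-negative cells (ratio 1.87). The shares below come from tables scaled apart, which leaves a share within a group as it is but not the sums between conditions. In normal GFP-positive cells Mmp2 held 75.2% and Mmp14 18.8% of the sum. In DSS GFP-positive cells Mmp2 held 38.2%, Mmp3 21.1%, Mmp14 18.1%, Mmp10 13.1% and Mmp13 7.34%. GFP-negative cells went from 59.3% Mmp2 and 34.6% Mmp14 in normal to 35.4% Mmp2, 33.6% Mmp3 and 25.6% Mmp14 in DSS colon. In normal unsorted colon Mmp13 held 11.9%, behind Mmp2 (62.5%) and Mmp14 (19.8%). In the small intestine Mmp2 led in GFP-high (53.2%) and GFP-low cells (64.8%), Mmp14 in GFP-negative cells (48.5%) and Mmp9 in unsorted cells (54.6%). These shares were not tested.

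The other genes of the system were taken from fixed lists, whose counts stand against the shares of all genes called for DSS, 10.2% higher and 9.46% lower in GFP-positive and 6.03% and 4.27% in GFP-negative cells. With so few genes a list, counts of 1 to 4 are not shown to differ from those shares. Of the 16 other metalloproteinases, 5 could be tested in GFP-positive and 6 in GFP-negative cells for DSS, and 1 rose in each: Mmp24, a membrane-type enzyme (log2 0.75, limma adjusted p = 0.0381), and Mmp8, the neutrophil collagenase (3.81, adjusted p = 0.00896, from a mean of 0.667 ± 1.15 to 20 ± 7 counts, SD, n = 3). None fell.

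Among the inhibitors, Timp3 rose in GFP-positive and Timp1 in GFP-negative cells. Timp3, which binds to the matrix, was at 1131, 1034 and 1114 counts in normal and 7129, 6682 and 7498 in DSS GFP-positive cells (log2 2.70, limma adjusted p = 1.36e-06), while in GFP-negative cells its change of 0.40 did not pass (adjusted p = 0.366). Timp1, the soluble and inducible inhibitor, was at 52, 94 and 69 and then 585, 275 and 373 in GFP-negative cells (2.47, adjusted p = 6.87e-04), while in GFP-positive cells its change of 0.39 did not pass (adjusted p = 0.332). In both cases the rise left no overlap between the groups. The difference of responses passed for Timp3 (2.29, interval 1.62 to 2.97, adjusted p = 0.00694), 1 of 7 genes to do so of 13488, and not for Timp1 (-2.08, interval -3.01 to -1.15, adjusted p = 0.150). Timp2, which also takes part in the activation of pro-Mmp2, fell in GFP-positive cells (-0.72), and Reck, a membrane-anchored inhibitor, fell in both sorts (-1.34 and -1.74). In DSS colon GFP-positive cells had more Timp3 (1.23) and less Timp1 (-2.15) than GFP-negative cells. In all, 1 inhibitor rose and 2 fell of 4 tested in GFP-positive cells, and 1 rose and 1 fell of 4 in GFP-negative cells.

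Of 11 genes tested for proenzyme activation and plasminogen activation, 1 rose and 2 fell in GFP-positive cells and 2 rose and 1 fell in GFP-negative cells. Serpine2, an inhibitor of plasminogen activators, rose in both (1.17 and 1.39) and Pcsk6, a proprotein convertase, fell in both (-1.43 and -1.98), with Pcsk5, another convertase, in GFP-positive cells (-0.78). Plau, the urokinase that generates plasmin, did not pass for DSS in either sort, and was higher in GFP-positive than in GFP-negative cells in normal (3.52, limma adjusted p = 0.0162) and DSS colon (2.34, adjusted p = 5.75e-06).

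Of 19 transcription factor genes, 3 rose and 2 fell in GFP-positive cells and 4 rose and 0 fell in GFP-negative cells. Jun, an AP-1 subunit, rose in both (0.97, limma adjusted p = 0.0204, and 1.14, adjusted p = 0.0403), with Rela (1.27) and Etv4 (1.20) in GFP-positive and Cebpb (1.35), Ets2 (1.35) and Ets1 (0.97) in GFP-negative cells. Fos, another AP-1 subunit, and Cebpd fell in GFP-positive cells (-1.17 and -0.77). Of 14 cytokine receptor genes, 3 rose and 2 fell, and 3 rose and 0 fell. Il17ra and Lifr rose in both sorts (1.29 and 1.81, 0.79 and 1.10), Osmr in GFP-positive (1.61) and Il1r1 in GFP-negative cells (1.95), while Il11ra1 (-0.85) and Il6ra (-0.79) fell in GFP-positive cells.

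Of the cytokine genes, 1 rose and 2 fell of 8 tested in GFP-positive cells, and 3 rose and 1 fell of 7 in GFP-negative cells. Il11 went from 119 ± 31.3 to 2109 ± 544 counts in GFP-negative cells (SD, n = 3, log2 4.15, limma adjusted p = 1.01e-05), with Lif (4.03) and Il6 (2.05), and Lif rose in GFP-positive cells (2.34). Tgfb3 fell in both sorts (-1.77 and -1.05) and Tgfb2 in GFP-positive cells (-0.68). Of 18 matrix substrate genes tested, 2 rose (Lama4 0.90 and Vcan 0.78) and 6 fell in GFP-positive cells, Col3a1 (-1.34), Col1a1 (-1.10), Fn1 (-0.91), Col1a2 (-0.88), Eln (-0.74) and Col5a2 (-0.64). In GFP-negative cells 0 rose and 3 fell (Hspg2 -1.73, Fn1 -1.22 and Eln -1.10).

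The 7 genes did not share 1 pattern across the 12 sorted colon libraries. By Pearson correlation of log2 counts, given as a description over libraries that share their groups and scale, Mmp3 and Mmp13 were at 0.857, Mmp9 and Mmp13 at 0.924, Mmp9 and Mmp10 at 0.843 and Mmp10 and Mmp13 at 0.818, while Mmp11 was at -0.871 with Mmp10 and -0.841 with Mmp13. Over 13487 genes the most similar to Mmp3 were Chl1 (0.987), Angptl4 (0.980) and Chid1 (0.978), and to Mmp10 Kcnj8 (0.976), Wisp1 (0.973) and Pappa (0.973). Mmp13 was closest to Sdad1 (0.965), Cemip (0.965) and Gm5940 (0.962), and Mmp9 to Zfp689 (0.928), Mmp13 (0.924) and Ifi208 (0.919). Mmp11 was closest to Igfbp6 (0.982), Sspn (0.965) and Rabac1 (0.964), and Mmp14 to Tmem120a (0.945), Cmtm4 (0.941) and Cmtm3 (0.937). For Mmp2 they were the antisense gene at its 3' end, whose reads cannot be told apart from its own, and Tgfb1i1 under 2 gene identifiers (0.927 and 0.917).

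The authors' deposited table gave fewer calls. At a deposited false discovery rate under 0.05 it called Mmp3, Mmp9 and Mmp13 for DSS in GFP-positive cells (background 45 of 16653 genes, 0.270%) and Mmp3, Mmp10 and Mmp13 in GFP-negative cells (76 of 16386 genes, 0.464%). Between the sorts it called Mmp10 in normal colon (0.563% of genes) and Mmp9, Mmp10 and Mmp13 in DSS colon (1.93% of genes). The authors' deposited table thus had no call for the rise of Mmp10 (false discovery rate 0.370) or the fall of Mmp11 in GFP-positive DSS cells.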

How the data were processed

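The labels describe QuantSeq 3' libraries sequenced on an Ion Proton from 30 samples, of which 29 are columns of the 14 deposited tables (15019 to 18042 genes each). Per the submitters' processing notes, TopHat2, Bowtie2 and DESeq were used with mm10. The sources used here do not give versions, the counting program, its strand setting or the annotation. The authors deposited normalised read counts rounded to whole numbers (treated as a score, not as raw counts), log2 fold changes and p-values with false discovery rates, per the file headers.

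From these counts limma 3.58.1 (R 4.3.3) was run on log2(count + 1) for genes whose mean reached 10 in either group compared, with a mean-variance trend, robust variances, Benjamini-Hochberg adjustment over all genes of a table and a threshold of 0.05. The scripts were tested on simulated data. Each comparison used only its own groups, and the difference of responses used the 4 sorted colon groups. The worth of 1 read was estimated from the spacing of low values, and with it the depth, and was not resolved for normal GFP-positive colon libraries 1 and 3. No 2 of 193 library pairs were identical.

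The 7 genes, the gene lists and the motifs were chosen with earlier results of these data known. Of the pathway lists the genes that passed the test for DSS are named, except 1 that is not reported here, and those that passed between the sorts are named in part. The genes most like each of the 7 are those with the 3 highest correlations. Promoters are RefSeq's, for 5 of 7 genes, and sequences of Mmp2, Mmp9 and of the proteins were not analysed here. Python 3.11.15, pandas 2.3.3, numpy 2.4.6 and matplotlib 3.10.9 were used. Alternatives were other pseudocounts, filters, scalings, variance models, a replicate block, all groups together, the authors' tests and leaving out each library.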

Additional observations from a re-analysis of the deposited data

Results flagged for a closer look

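Mmp10 moved in opposite directions when GFP-negative cells were set against unsorted cells in the 2 organs. In normal colon all 3 GFP-negative libraries (5, 21 and 15 normalised counts) lay below all unsorted ones (27, 38 and 27), a log2 difference of -1.29. In the small intestine all 3 GFP-negative libraries (110, 102 and 231) lay above both unsorted ones (53 and 81), a log2 difference of 1.06. Without overlap, 20.8% of all genes were lower in that colon comparison, and 18.4% were higher and 28.0% lower in the small intestine, with 3 libraries against 2. Neither difference passed the limma test (adjusted p = 0.142 and 0.189), the organs were scaled apart, and the difference between the 2 differences was not tested.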

How the results depend on the processing

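Over all alternatives the calls of Mmp3 and Mmp13 for DSS in both sorts, and of Mmp10 between the sorts of both colons, kept their direction and side of the threshold. The number of the 7 genes called changed by more than 1.5 times as follows, and the cause was not tested. With the authors' deposited table it was 3 in place of 5 for DSS in GFP-positive cells, 1 in place of 2 for GFP-low over GFP-negative cells (Mmp9, with both calls of limma lost), 2 in place of 4 and 1 in place of 3 for GFP-positive and GFP-negative over unsorted normal colon, 1 in place of 4 and 1 in place of 7 in DSS colon, and 1 in place of 3, 2 in place of 6 and 2 in place of 4 for GFP-high, GFP-low and GFP-negative over unsorted small intestine. GFP-low over GFP-negative cells also had 1 call with a pseudocount of 0.5, with equal library totals and with recomputed size factors, and 0 with plain variances and with all groups fitted together. GFP-high over unsorted cells had 5 with a pseudocount of 8 and 1 with plain variances, and GFP-low over unsorted cells had 3 with all groups together. With the replicate block the calls were 1 for GFP-low over GFP-negative cells and 5 in place of 3 for GFP-negative over unsorted normal colon (Mmp11 and Mmp14 gained, adjusted p = 0.0457 and 0.0451). Against unsorted cells the block also gained Mmp13 in DSS GFP-positive (0.0482), Mmp14 in GFP-high (0.0113) and Mmp10 in GFP-low cells (0.00469). It brought Mmp9 past the threshold for DSS in GFP-negative cells (adjusted p = 0.0499), as did a pseudocount of 8 (0.0471) and all groups together (0.0186). Same-numbered samples did not all correlate above 0.1 in any comparison. For GFP-high and GFP-low cells their correlations ran from 0.078 to 0.230 (other pairs -0.141 to 0.063). Between the sorts of normal colon they ran from -0.188 to 0.150 (other pairs -0.307 to 0.304). Whether the numbers pair the samples cannot be told from this, and the main tests used no pairing.

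Leaving out 1 library gave 5 to 6 calls for DSS in GFP-positive and 3 to 5 in GFP-negative cells, 1 and 4 between the sorts of normal and DSS colon, 0 to 1 for GFP-high and for GFP-low over GFP-negative cells, 3 to 5, 2 to 4, 3 to 6 and 6 to 7 over unsorted colon, and 0 to 4, 1 to 7 and 0 to 4 over unsorted small intestine, where a lone unsorted sample is assumed to vary like the other group. Signs turned only for uncalled values. For DSS in GFP-negative cells Mmp2 ran from -0.12 to 0.44, and between the sorts of normal colon Mmp14 ran from -0.51 to 0.32. In the small intestine Mmp11 ran from -0.10 to 1.24 for GFP-low over GFP-negative and from -0.23 to 0.98 for GFP-high over unsorted cells. For GFP-high over GFP-low cells Mmp2 ran from -0.75 to 0.093, Mmp3 from -0.72 to 0.53 (0.21 in the authors' table against -0.074), Mmp10 from -0.074 to 0.87 and Mmp14 from -0.035 to 0.90. For the difference of responses Mmp13 ran from -0.43 to 0.86 (-0.35 with a pseudocount of 0.5) and Mmp14 from -0.50 to 0.32.

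With equal library totals the share of higher calls over all genes fell from 52.0% to 38.5% for DSS in GFP-positive cells, from 58.5% to 44.1% in GFP-negative cells and from 41.5% to 30.4% for DSS GFP-negative over unsorted cells, with medians of -0.13, -0.14 and -0.23. The median was then -0.14 for DSS GFP-positive over unsorted cells and 0.17 and 0.16 for GFP-high and GFP-low over GFP-negative cells. On the authors' scale it was -0.14, -0.14 and -0.26 for the 3 sorts over unsorted small intestine. Depth limits Mmp9 and Mmp13 in normal sorted cells, whose values come from a few reads.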
